A study of Mus musculus with 2 samples.

Results

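The collagen gene family was read here as every gene whose symbol is Col, digits, a, digits, which gave 44 of the 32287 features measured in cells sorted from denervated mouse muscle. Levels were followed across 12 classes of cells, gated by marker genes that include no collagen. The cells came from hind limb muscle of 2-month-old male S100GFPtg mice, titled WT, 7 days after sciatic nerve crush. In this line green fluorescent protein (GFP) is driven by the S100B promoter, and viable GFP+ cells were sorted into 1 library made in droplets, which reads the 3' end of each transcript. How many animals gave these cells is uncertain, since the methods pooled males and the series description speaks of 1 crushed mouse. Every cell carried the transgene and came from injured muscle, and no uninjured library was used. The GFP- library of the same muscle was not analysed here beyond its barcodes.

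Collagens are proteins of the extracellular matrix built from 3 chains that wind into a triple helix. Fibril-forming collagens carry tension in tendon, muscle connective tissue and nerve sheath, fibril-associated collagens sit on their surface, and type IV collagen forms the sheet-like network of basement membranes around muscle fibres, vessels and Schwann cells. Fibroblasts and tendon cells (tenocytes) are the known main producers of fibrillar collagen, while Schwann, endothelial and mural cells (the smooth muscle cells and pericytes of vessel walls) lie on basement membranes that they help to build.

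The library held 36400 barcodes and 170648616 UMIs (unique molecular identifiers, 1 for each captured transcript), and 0.812% of the UMIs were on collagens. All 44 members had at least 1 UMI, from 1 UMI of Col9a1 to 379537 of Col3a1. Of 18528 barcodes with at least 2000 UMIs that passed the study's filter, 12174 fell into exactly 1 class. Another 4476 passed several gates, 1573 were above a limit on myeloid or fibroblast markers, and 305 passed none. Median depth per class lay between 5205 UMIs (endothelial-like) and 17508 UMIs (Pi16/Dpp4 fibroblast-like). Of the gated barcodes, 107 (0.879%) were also barcodes of the GFP- library. Levels are CPM, the UMIs of a gene for every 1000000 UMIs of the class, with exact Poisson 95% intervals. A transcript gives 1 tag whatever its length, so levels were not divided by length. Whether transcripts of different genes were captured equally well was not tested. With 1 library there is no replicate and no test. All intervals cover counting error only, and cells of 1 library are not replicates.

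The gates gave 1346 fibroblasts, 409 tenocyte-like, 93 Schwann-like, 55 mural-like, 72 endothelial-like, 228 satellite cell and myoblast-like and 9971 myeloid-like cells. Satellite cells, the stem cells of muscle, and their myoblasts were kept as a comparator. Fibroblasts were divided by their leading genes into Pi16/Dpp4 (341 cells), Gdf10/Inmt (181), Smoc2/Cxcl14 (202), Dkk2/Bmper (266) and Apod/Tenm2 fibroblast-like cells (43), and 313 fell to no subtype. A UMI of Sox10, a gene of the Schwann list, was found in 71 of the 93 Schwann-like cells. The marker sums that follow describe the gates, since the same lists assigned the cells, and give no independent support to a class name. The 9 tenocyte markers summed to 23252 CPM in tenocyte-like cells and 439.7 CPM in fibroblasts, the 12 Schwann markers to 10578 against 47.2 CPM, the 12 mural markers to 18432 against 94.4 CPM, and the 11 endothelial markers to 7899 against 182 CPM. The 10 satellite cell markers summed to 2356 against 21.6 CPM and the 11 myeloid markers to 20123 against 107 CPM. The subtype lists, by which the fibroblasts were divided, summed to 6000.5 CPM for the 8 Pi16/Dpp4 genes in their subtype against at most 985 CPM in another fibroblast class, 2377 against 393 CPM for the 5 Gdf10/Inmt genes, 12351 against 2959 CPM for the 5 Smoc2/Cxcl14 genes, 2148 against 779 CPM for the 3 Dkk2/Bmper genes and 24840 against 6294 CPM for the 9 Apod/Tenm2 genes. Single genes could be higher elsewhere. Lpl of the Smoc2/Cxcl14 list was at 694 CPM there and 1058 CPM in Dkk2/Bmper cells, and Cyp4b1 of the Gdf10/Inmt list at 15.8 CPM there, 24.7 CPM in Apod/Tenm2 and 66.4 CPM in endothelial-like cells. Of the 8 fibroblast markers, Lamc3 was nearly absent from fibroblasts (0.617 CPM).

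Transcripts of fibroblast genes were present in every other class. They were measured with 8 genes that no gate used, among them Dcn (decorin, a proteoglycan that binds collagen fibrils). Relative to gated fibroblasts these genes stood at 8.38% in Schwann-like, 3.03% in endothelial-like, 2.09% in mural-like, 1.60% in satellite and myoblast-like and 1.32% in myeloid-like cells, by the sum of the 8. Single genes ran from 1.36% (Clec3b) to 21.8% (Mmp2) in Schwann-like, from 0.629% (Clec3b) to 8.57% (Fstl1) in endothelial-like, from 0% (Fbln1 and Igfbp6) to 11.8% (Fstl1) in mural-like, from 0.127% (Mfap5) to 7.72% (Fstl1) in satellite and myoblast-like and from 1.12% (Clec3b) to 1.52% (Igfbp6) in myeloid-like cells. The median of the 8 was 7.24% in Schwann-like, 2.17% in endothelial-like, 0.372% in mural-like, 1.29% in satellite and myoblast-like and 1.36% in myeloid-like cells. The genes thus agreed closely in myeloid-like cells and widely disagreed in the other classes. Below, a collagen's level in these classes is given as a percentage of its fibroblast level and set beside this range, and a percentage within the range is not read as a level of the class itself. Haemoglobin and other erythroid markers summed to 1205 CPM in tenocyte-like and 1201 CPM in myeloid-like cells, to 235 CPM in endothelial-like cells and to 40.1 CPM in fibroblasts. Their part in the collagen levels was not tested.

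Collagen took 2.68% of the UMIs of gated fibroblasts (95% binomial interval 2.67 to 2.69%) and 3.00% of those of tenocyte-like cells (2.98 to 3.02%). Among the fibroblast subtypes the share was highest in Gdf10/Inmt cells (3.15%, 3.13 to 3.18%), then in Smoc2/Cxcl14 (2.78%), Pi16/Dpp4 (2.56%), Dkk2/Bmper (2.25%) and Apod/Tenm2 cells (2.02%). Schwann-like cells held 0.492% (0.476 to 0.507%), endothelial-like cells 0.254% (0.240 to 0.268%), mural-like cells 0.224% (0.211 to 0.238%) and satellite and myoblast-like cells 0.177% (0.171 to 0.183%). The order of endothelial-like and mural-like cells turned under other settings, with 0.234 against 0.245% when each cell was weighted the same and 0.277 against 0.314% without the limits on myeloid and fibroblast markers. Myeloid-like cells held 0.0468% (0.0463 to 0.0472%), and 0.0149% among cells with at least 5000 UMIs, 0.121% with each cell weighted the same and 0.0124% with fibroblast RNA subtracted. The mural-like share was 0.419% and the endothelial-like share 0.284% under a stricter filter on genes and mitochondrial UMIs, which left 11 mural-like cells. Single cells spread widely. The quartiles of fibroblasts were 1.48 and 3.25% and those of tenocyte-like cells 1.47 and 3.54%, so the cells of these classes overlapped.

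**Figure D1:**
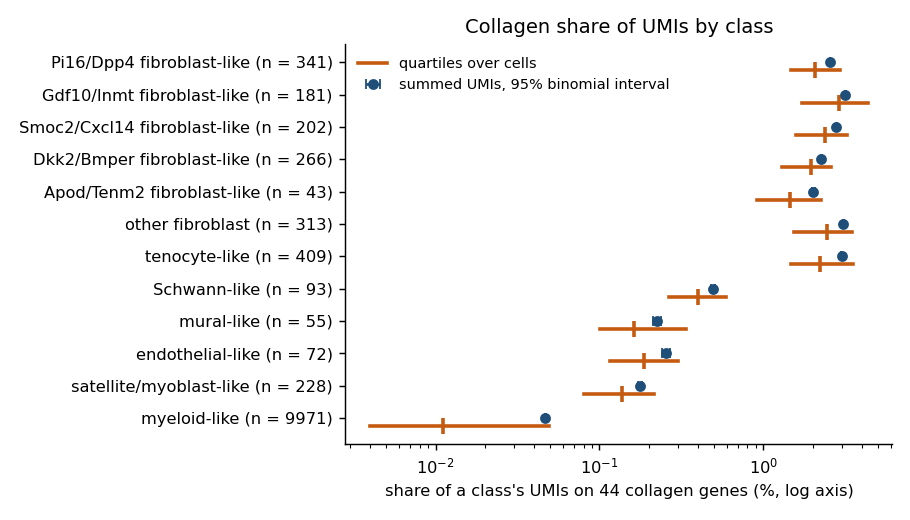
Share of a class's UMIs on the 44 collagens, in percent on a log axis, for the 12 classes, with the number of cells after each name. Blue points with bars are the summed UMIs with 95% binomial intervals, mostly narrower than the point, and orange lines with a tick are the quartiles and median over cells. The lower quartile of myeloid-like cells is 0 and is drawn at the axis end. The fibroblast and tenocyte-like points lie between 2.02 and 3.15%, and all other classes lie at 0.492% or below.

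Of the 44 members, 35 reached 20 CPM in at least 1 class and 2 of them, Col1a1 and Col3a1, did so in all 12 classes. The highest class was tenocyte-like for 10 members, Apod/Tenm2 fibroblast-like for 6, Pi16/Dpp4 for 5, Smoc2/Cxcl14 for 3, Dkk2/Bmper for 3, Gdf10/Inmt for 1 and the unassigned fibroblasts for 5. It was Schwann-like for 5, mural-like for 3, endothelial-like for 2 and satellite and myoblast-like for 1. Some of these places rested on a few UMIs, such as 1 UMI of Col9a1 in Gdf10/Inmt cells, 1 of Col9a2 in Apod/Tenm2 cells, 1 of Col10a1 in the unassigned fibroblasts, and 3 each of Col6a4 in Dkk2/Bmper and Col17a1 in mural-like cells. Counting the 35 members at 20 CPM or more, Dkk2/Bmper and mural-like cells kept 1 each, Gdf10/Inmt cells 0, tenocyte-like cells 10, Apod/Tenm2 cells 5 and Schwann-like cells 4. Of the 5 in Apod/Tenm2 cells, a single cell held 54.1% of the UMIs of Col26a1 and 43.5% of those of Col2a1. For 25 members the interval of the ratio to the next class stayed above 1, and for 7 members it stayed above 4-fold. The remaining 9 members stayed below 20 CPM everywhere, with 410 UMIs in the library for Col6a5, 331 for Col4a3, 325 for Col9a3, 112 for Col17a1, 103 for Col25a1, 30 for Col9a2, 18 for Col6a4, 6 for Col10a1 and 1 for Col9a1.

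**Figure D2:**
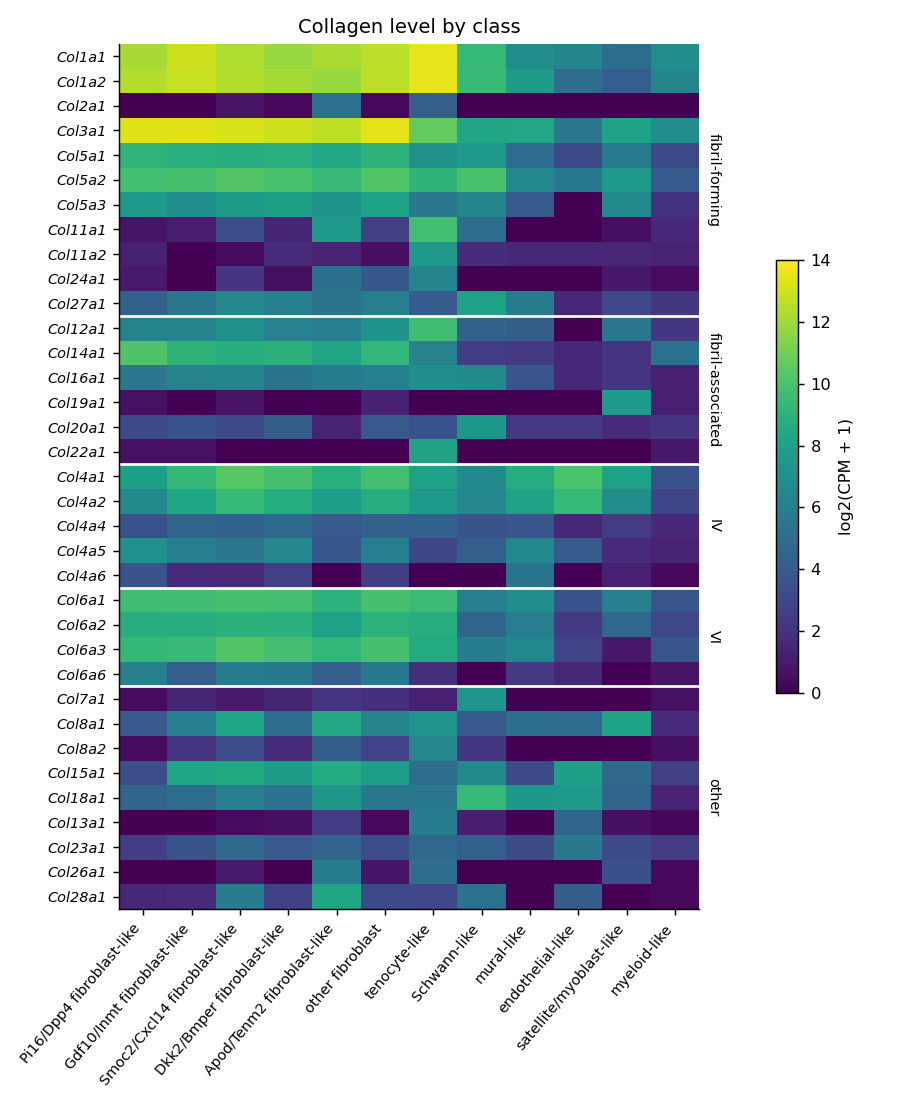
Level of the 35 members that reached 20 CPM in a class, as log2(CPM + 1), by class and ordered by collagen family. The 10 members highest in tenocyte-like cells include Col11a1, Col11a2 and Col22a1, while Col7a1 and Col19a1 are bright in 1 column each, Schwann-like and satellite and myoblast-like.

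Sequence is shown for members that the comparisons below turn on: Col1a2 and Col3a1, whose order turned between fibroblasts and tenocyte-like cells, and Col7a1 and Col18a1, which were highest in Schwann-like cells. Each is the 250 bases before a RefSeq start on GRCm38.p6, 5′ to 3′ on the gene's strand, from a window that overlaps no annotated gene body. Capitals mark matches, on either strand, to any of 4 motifs. These were the CCAAT box, the GC box GGGCGG, the TATA box TATAAA, and ACAAAG as in Sox factor sites. Col1a2 lies at chr6:4505368-4505617 (plus strand), Col3a1 at chr1:45311288-45311537 (plus), Col7a1 at chr9:108953336-108953585 (plus) and the upstream start of Col18a1 at chr10:77166531-77166780 (minus).
Col1a2: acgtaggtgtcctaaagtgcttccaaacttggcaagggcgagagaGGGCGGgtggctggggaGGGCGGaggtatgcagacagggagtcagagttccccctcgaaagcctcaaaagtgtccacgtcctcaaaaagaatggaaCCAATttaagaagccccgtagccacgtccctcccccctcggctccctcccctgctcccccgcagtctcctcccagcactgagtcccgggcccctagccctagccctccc
Col3a1: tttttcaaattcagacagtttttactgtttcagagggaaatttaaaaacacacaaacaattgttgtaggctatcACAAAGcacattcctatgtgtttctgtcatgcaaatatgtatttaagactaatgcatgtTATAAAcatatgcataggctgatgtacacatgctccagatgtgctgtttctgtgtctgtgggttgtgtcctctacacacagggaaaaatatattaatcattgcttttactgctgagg
Col7a1: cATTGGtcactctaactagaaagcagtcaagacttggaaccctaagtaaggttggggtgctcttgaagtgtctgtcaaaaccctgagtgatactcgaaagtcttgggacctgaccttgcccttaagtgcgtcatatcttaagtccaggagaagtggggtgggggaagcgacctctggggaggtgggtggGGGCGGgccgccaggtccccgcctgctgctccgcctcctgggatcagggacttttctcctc
Col18a1: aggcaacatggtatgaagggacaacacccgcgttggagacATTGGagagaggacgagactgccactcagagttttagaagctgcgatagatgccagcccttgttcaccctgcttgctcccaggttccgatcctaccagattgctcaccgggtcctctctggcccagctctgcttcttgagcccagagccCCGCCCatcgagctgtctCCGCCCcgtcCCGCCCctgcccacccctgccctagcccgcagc
The Col1a2 window held GGGCGG 2 times and CCAAT 1 time, and 62.0% of its bases were G or C. The Col3a1 window held TATAAA and ACAAAG 1 time each and had 35.2% G or C. The printed windows of Col7a1 and Col18a1 held GGGCGG 1 and 3 times and CCAAT 1 time each. The other windows of members highest in Schwann-like cells did not share this. The downstream start of Col18a1 held none of the 4 motifs, Col20a1 held ACAAAG 1 time and no other, and Col27a1 held GGGCGG 1 time and no other. Windows were at hand for 35 of the 44 members, 38 in all. GGGCGG was in 57.9% of these and in 32.7% of all 32851 windows of this length, CCAAT in 34.2% against 33.9%, TATAAA in 13.2% against 12.4%, and ACAAAG in 10.5% against 16.5%. The median G and C content was 59.0% against 52.4%. A match describes these letters only and was not tied to any factor.

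Fibril-forming collagens made up 82.4% of the collagen UMIs of fibroblasts and 87.3% of those of tenocyte-like cells. In fibroblasts Col3a1, the chain of type III collagen found in extensible tissue, led with 9595 CPM (9552 to 9639). It was followed by the partner chains of type I collagen, the main tension-bearing collagen, with 5460 CPM of Col1a2 (5428 to 5493) and 5172 CPM of Col1a1 (5140 to 5204). In tenocyte-like cells the order turned. Col1a1 stood at 11469.5 CPM and Col1a2 at 11248 CPM, and Col3a1 at 1573 CPM (1536 to 1610). Per UMI of Col1a1 there were 1.86 UMIs of Col3a1 in fibroblasts (1.84 to 1.87) and 0.137 in tenocyte-like cells (0.134 to 0.141). All 5 fibroblast subtypes lay between 1.34 and 2.20, so none of them came near the tenocyte-like value. The top 5 of 409 tenocyte-like cells held 7.33% of the Col1a1 and 27.5% of the Col3a1 UMIs.

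Type I chains kept close to 1 UMI of Col1a1 per UMI of Col1a2 in both classes, with 0.947 in fibroblasts (0.939 to 0.955) and 1.02 in tenocyte-like cells (1.01 to 1.03). Within fibroblasts this ratio ran from 0.830 in Dkk2/Bmper to 1.31 in Apod/Tenm2 cells (1.24 to 1.39). The genes of the 2 chains lie on different chromosomes, Col1a1 at chr11:94936224-94953042 and Col1a2 at chr6:4505618-4541543.

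Of the 41 members with at least 10 UMIs over tenocyte-like cells and fibroblasts, 12 were higher in tenocyte-like cells with the whole interval past 2-fold, where the same rule took 5.61% of all 16338 features. Another 13 were lower past 2-fold, against 6.22% of all features. Among the 12 higher, Col22a1, Col13a1 and Col25a1 were at 0.206, 0.360 and 0.360 CPM in fibroblasts. They reached 10 UMIs only with those of tenocyte-like cells, so they could not have been called lower. The higher count was 11 without Scrublet doublets (5.67%) and under the stricter filter on genes and mitochondrial UMIs (5.28%), since Col1a2 then no longer passed. The median log2 ratio was -0.04 over the collagens and 0.06 over all features. Col11a1 and Col11a2, the chains of type XI collagen that nucleates thin fibrils, stood at 862.5 CPM (835 to 890) and 187 CPM (174 to 200) in tenocyte-like cells and at 9.25 and 1.13 CPM in fibroblasts. The log2 ratios were 6.54 (6.33 to 6.77) and 7.37 (6.76 to 8.05). Col12a1, a fibril-associated collagen of tendon and dense connective tissue, reached 841 CPM against 104 CPM, a log2 ratio of 3.02 (2.94 to 3.10).

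Col22a1, a fibril-associated collagen known from the muscle-tendon junction, was at 272 CPM (257 to 288) in tenocyte-like cells, with 1201 UMIs. The next class, myeloid-like, was at 0.952 CPM, and fibroblasts at 0.206 CPM. Only 112 of 409 tenocyte-like cells had a UMI of Col22a1, and after thinning every cell to 2000 UMIs 20.5% did (16.7 to 24.8%), against 0.371% of myeloid-like cells. By comparison Col11a1 was in 68.9% of the thinned tenocyte-like cells (64.2 to 73.4%). The level of Col22a1 was also lower than that of Col11a1, so these shares were not compared at equal level.

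Others highest in tenocyte-like cells were Col16a1 at 123 CPM, Col8a2 (a network-forming chain) at 89.6 CPM, the fibrillar Col24a1 at 77.6 CPM and the transmembrane collagen Col13a1 at 60.6 CPM. Their log2 ratios to fibroblasts were 1.04, 4.43, 3.99 and 7.40, and that of Col16a1 had an interval from 0.89 to 1.19 that crossed 2-fold. Col26a1 (31.7 CPM), Col2a1 (17.6 CPM, the cartilage collagen) and Col25a1 (32 UMIs) also passed 2-fold.

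Lower in tenocyte-like cells beside Col3a1 were Col14a1 (73.3 against 702 CPM), a fibril-associated collagen, and Col15a1 (31.5 against 191 CPM), which lies close to basement membranes. Col5a1, a chain of the type V collagen that limits fibril width, was at 141 against 515 CPM, and its relative Col5a3 at 46.4 against 215 CPM. Among the type VI chains, which form beaded filaments around cells, Col6a3 was at 377 against 864 CPM and Col6a6 at 2.72 against 52.3 CPM. Col6a1 and Col6a2 did not pass 2-fold, at 752 against 888 CPM and 421 against 465 CPM. Tenocyte-like cells thus held 0.501 UMIs of Col6a3 per UMI of Col6a1 (0.472 to 0.531), and fibroblasts 0.973 (0.952 to 0.994). The other members past 2-fold lower were Col4a1, Col4a5, Col4a6, Col6a5, Col27a1 and Col28a1.

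**Figure D3:**
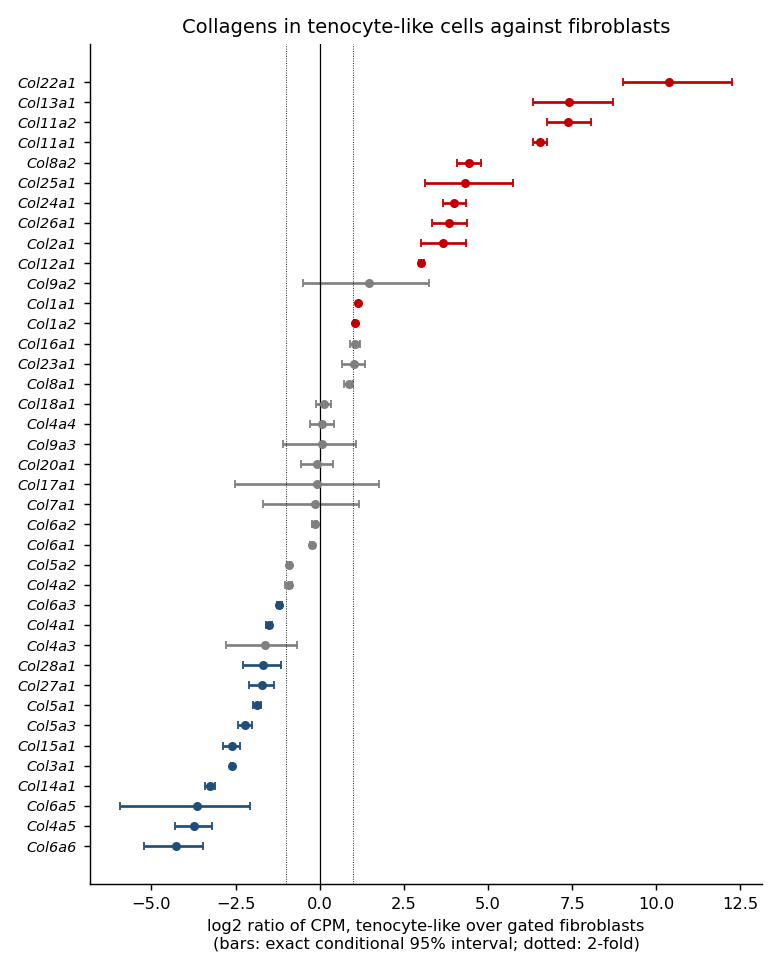
Log2 ratio of CPM in tenocyte-like cells (409) over gated fibroblasts (1346) for the members with at least 10 UMIs over both and at least 1 in tenocyte-like cells, with exact conditional 95% intervals. Red and blue mark intervals wholly past 2-fold (dotted lines) above and below, and grey marks the others. Col22a1 is at the top and Col6a6 at the bottom, and Col1a1 and Col1a2 lie just past 2-fold, Col1a2 not in 2 of the other settings. Col4a6, with no UMI in tenocyte-like cells, is not drawn.

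No fibroblast subtype differed from the other gated fibroblasts past 2-fold in Col1a1, Col1a2 or Col3a1, and the members that did were of other types. In Pi16/Dpp4 cells 13 of the 37 members with at least 10 UMIs were lower than in the other gated fibroblasts past 2-fold (4.51% of all 15649 features) and 1 was higher (2.82%). Of the fibroblast UMIs, the 43 Apod/Tenm2 cells held 117 of 180 for Col11a1 and 37 of 43 for Col26a1. Without these cells among the fibroblasts compared, an alternative chosen after the data were seen, 10 of 35 members were lower (4.34% of all 15513 features), with Col2a1, Col23a1 and Col26a1 no longer counted, and 1 was higher (2.88%). The higher one was Col14a1, at 1125 CPM (1098 to 1153) against 524 CPM, and the other classes of fibroblasts held between 293 and 612 CPM. Col15a1 was at 9.40 CPM (7.06 to 12.3) in Pi16/Dpp4 cells and at 207 to 395 CPM in every other fibroblast class. Type IV collagen followed, with Col4a1 at 250 CPM against 945 CPM in the other fibroblasts and Col4a2 at 101 against 445 CPM. Col8a1 was at 14.3 against 123 CPM and Col27a1 at 19.5 against 65.8 CPM. Col4a5 went the other way, at 135 CPM (the highest of any class) against 66.2 CPM, though its interval of 1.85 to 2.25-fold crossed the threshold. So did Col4a6, at 10.8 against 4.12 CPM without the Apod/Tenm2 cells. Its log2 ratio of 1.39 had an interval from 0.84 to 1.94 that also crossed 2-fold.

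In Smoc2/Cxcl14 cells 4 members were higher past 2-fold (1.93% of all features) and none was lower (2.18%). Without the Apod/Tenm2 cells Col11a1 and Col23a1 were higher too, so 6 in all (2.17%), and none was lower (2.19%). The 4 were Col8a1 (309 against 51.3 CPM), Col28a1 (58.4 against 15.4 CPM), Col4a2 (657 against 286 CPM) and Col15a1 (361 against 160 CPM). Col4a1 reached 1296 CPM (1255 to 1337) there, above the 1047 CPM of endothelial-like cells (957 to 1142). Col5a2 (1236 CPM) and Col6a3 (1205 CPM) also had their highest level in this subtype, and for Col5a2 the interval of the ratio to the unassigned fibroblasts (1186 CPM) included no difference. The top 5 of 202 cells held 8.65% of the Col4a1 UMIs and 30.5% of the Col8a1 UMIs. Of the tenocyte markers, Thbs4 was at 1548 CPM in this subtype against 335 CPM in all gated fibroblasts, while the other 8 summed to 48.4 against 105 CPM. In tenocyte-like cells themselves Col4a1, Col8a1 and Col28a1 were at 261, 165 and 6.79 CPM, lower than in Smoc2/Cxcl14 cells.

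In Gdf10/Inmt cells no member was higher past 2-fold (1.18% of all features) and 4 were lower (1.07%), namely Col6a6, Col11a1, Col24a1 and Col28a1. Without the Apod/Tenm2 cells none was higher (1.25%) and 3 were lower (1.08%), Col11a1 not among them. With 1 more marker asked for, Col22a1 was higher (1.39% of all features) and 2 members were lower (1.07%). Col1a1 was at 7960 CPM (7829 to 8092) and Col1a2 at 7188 CPM in Gdf10/Inmt cells, the highest levels of the fibroblast classes and 1.63-fold and 1.36-fold those of the other gated fibroblasts. Dkk2/Bmper cells had no member higher (0.735%) and 5 lower past 2-fold (1.34%), namely Col8a1, Col11a1, Col24a1, Col26a1 and Col28a1. Without the Apod/Tenm2 cells 2 were lower (1.23%), Col8a1 and Col24a1, and none was higher (0.761%). Dkk2/Bmper cells also had the lowest Col1a1 of the subtypes, 3611 CPM (3553 to 3669). Col4a4, a rarer type IV chain, had its highest level there, at 26.8 CPM against 21.4 CPM in Gdf10/Inmt cells, and the interval of that ratio included no difference.

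Apod/Tenm2 cells, defined with genes of nerve-sheath fibroblasts, were only 43 cells. Of the 37 members 8 were higher than in the other fibroblasts past 2-fold (2.55% of all features) and 2 were lower, Col14a1 and Col4a5 (1.11%). Among the 8, Col26a1 and Col2a1 had 6 and 4 UMIs in the other fibroblasts. They passed the filter only through the Apod/Tenm2 cells, so they could not have been called lower. Col28a1, a collagen known from peripheral nerve, stood at 301 CPM (259 to 348) against 13.0 CPM, a log2 ratio of 4.53 (4.25 to 4.81). It was left out of the subtype's list because it is a collagen, and the list was chosen with earlier results known. Its high level here is therefore no independent support for the subtype. The next class, Smoc2/Cxcl14 cells, was at 58.4 CPM and Schwann-like cells at 37.1 CPM. Col28a1 was found in 17 of the 43 cells, and the top 5 held 76.0% of its UMIs. With each cell weighted the same its level was 199 CPM. Col8a1 (344 CPM) and Col15a1 (395 CPM) were highest here too, but their intervals against Smoc2/Cxcl14 cells included no difference, and the stricter filter on genes and mitochondrial UMIs brought Col8a1 to 166 CPM. Under that filter, and with a minimum of 5000 UMIs, Col4a5 was the 1 member lower (0.772 and 0.959% of all features). Col18a1 was at 166 CPM against 39.1 CPM.

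The other 5 higher members rested on few Apod/Tenm2 cells. A single cell held 57.3% of the 117 Col11a1 UMIs, 54.1% of the 37 Col26a1 UMIs, 43.5% of the 23 Col2a1 UMIs and 81.0% of the 21 Col24a1 UMIs, and Col8a2 had 10 UMIs. These members, all high in tenocyte-like cells, are not read as levels of the subtype. Tenocyte markers other than Thbs4 summed to 166 CPM in Apod/Tenm2 cells against 105 CPM in all gated fibroblasts. Wif1, a gene of the subtype's own list, was at 150 CPM there and at 659 CPM in tenocyte-like cells. Apod, of the same list, was also present in Schwann-like cells. It was at 4396 and 4452 CPM in the 47 and 46 Schwann-like cells divided below. The 6 perineurial markers, those of the outer nerve sheath, summed to 282 CPM in Apod/Tenm2, 292 CPM in Schwann-like and 413 CPM in endothelial-like cells against 94.0 CPM in fibroblasts. Most of the sum was Tjp1, a tight junction gene, in Schwann-like (197 CPM) and endothelial-like cells (311 CPM), while Cldn1 was at 79.0 CPM in Apod/Tenm2, 14.1 CPM in Schwann-like and 8.31 CPM in endothelial-like cells. The part of perineurial cells in the collagen levels of these 3 classes was not tested.

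In Schwann-like cells 6 of 37 members were higher than in fibroblasts past 2-fold (9.27% of all 15948 features) and 15 were lower (6.04%). The median log2 ratio was -1.48 over the collagens and 0.31 over all features. Col18a1, the basement membrane collagen from which endostatin is cut, was at 664 CPM (608 to 723) against 43.1 CPM in fibroblasts and 187 CPM in endothelial-like cells, the next class. Col7a1, the chain of anchoring fibrils below epithelia, was at 162 CPM (135 to 193) from 127 UMIs, and no other class was above 3.29 CPM. Its log2 ratio to fibroblasts was 6.77 (6.18 to 7.40). Col20a1, a fibril-associated collagen, was at 178 CPM (149 to 210) against 11.2 CPM and Col27a1, a fibrillar collagen with a long triple helix, at 255 CPM (220 to 292) against 52.2 CPM.

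The share of Schwann-like cells with these transcripts was well above that of myeloid-like cells. After thinning to 2000 UMIs Col18a1 was in 61.3% of the 93 cells (50.6 to 71.2%) and in 0.692% of myeloid-like cells. Col7a1 was in 31.2% (22.0 to 41.6%) against 0.120%, and Col20a1 in 21.5% (13.7 to 31.2%) against 0.702%. Without thinning the Schwann-like shares were 84.9%, 34.4% and 45.2%, at median depths of 7092 UMIs in Schwann-like and 7957 UMIs in myeloid-like cells. The top 5 cells held 19.8% of Col18a1, 40.9% of Col7a1 and 39.6% of Col20a1. Col11a1 (24 UMIs) and Col9a3 (9 UMIs) were the other members past 2-fold higher. Col11a1 no longer passed with a minimum of 5000 UMIs (5 higher, 9.02% of all features), with 1 more marker asked for (5, 9.27%) or without the limits on myeloid and fibroblast markers (5, 9.20%).

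Col5a2, the partner chain of Col5a1 in type V collagen, was the highest collagen of Schwann-like cells with 1007 CPM (937 to 1079), close to the 1026 CPM of fibroblasts. Its log2 ratio to fibroblasts was -0.03 (-0.13 to 0.07) and its level 98.1% of theirs, above the range of the 8 fibroblast genes. Col5a1 was at 184 CPM against 515 CPM, so there were 5.47 UMIs of Col5a2 per UMI of Col5a1 (4.57 to 6.57), compared with 1.99 in fibroblasts (1.94 to 2.04). Col16a1 was at 105 CPM, near the 123 CPM of tenocyte-like cells, with an interval of the ratio that included no difference. Type IV chains were low in comparison, with Col4a1 at 99.8 CPM and Col4a2 at 87.0 CPM. They were 13.5 and 25.3% of the fibroblast level, the first within the range of the 8 fibroblast genes.

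Types I and III were at 710 CPM (Col1a2), 656 CPM (Col1a1) and 304 CPM (Col3a1) in Schwann-like cells. These were 13.0, 12.7 and 3.17% of the fibroblast level, all within the range of the 8 fibroblast genes. Col1a1 was in 44.1% of the thinned Schwann-like cells (33.8 to 54.8%) and 18.7% of myeloid-like cells. Col3a1 was in 17.2% (10.2 to 26.4%) against 18.7%, an interval that holds the myeloid-like share, and 5 cells held 68.1% of its UMIs. The cells were also divided at the median sum of the 8 fibroblast genes, a division chosen after the data were seen that sets the level of those genes itself. In the 47 cells with the lower sums Col1a1 was at 435 CPM (24 cells with a UMI), Col1a2 at 606 CPM (32 cells) and Col3a1 at 72.9 CPM (8 cells), and in the other 46 cells they were at 842, 797 and 499 CPM. Col5a2 was at 1486 CPM (1362 to 1618) in the cells with the lower sums and 604 CPM (533 to 683) in the others, Col20a1 at 269 and 101 CPM, Col7a1 at 230 and 106 CPM and Col18a1 at 676 and 654 CPM. Col4a1 was at 56.1 and 136 CPM and Col4a2 at 50.5 and 118 CPM. Col15a1 was at 81.3 CPM (54.4 to 117) and 118 CPM (87.3 to 155), intervals that overlapped. Dcn, among the 8 genes whose sum set the division, was at 11.2 CPM (4 cells with a UMI) and 1738 CPM (17 cells). The 3 chains of types I and III and these 2 type IV chains were thus among the members that were lower in the cells with less of the fibroblast genes, Col3a1 by the most of the 5, and the part of fibroblast RNA in them was not tested.

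In endothelial-like cells 3 of 38 members were higher than in fibroblasts past 2-fold (7.43% of all 15898 features) and 15 lower (5.19%). Type IV collagen made up 68.3% of their collagen UMIs, against 4.48% in fibroblasts. Col4a1 was at 1047 CPM and Col4a2 at 664 CPM (594 to 741), and Col4a1 was in 80.6% of the thinned cells (69.5 to 88.9%) against 4.53% of myeloid-like cells. Since fibroblasts also held 740.1 and 343 CPM of these chains, the ratios were 1.41-fold (1.29 to 1.55) and 1.94-fold (1.73 to 2.17). The 3 members past 2-fold were Col18a1 (187 CPM), the transmembrane collagen Col23a1 (47.8 CPM, 30.3 to 71.7) and Col13a1 (22.8 CPM, 11 UMIs in 5 cells). The top 5 of 72 cells held 78.3% of the Col23a1 UMIs, and under the stricter filter on genes and mitochondrial UMIs Col23a1 no longer passed (2 higher, 7.07% of all features). Col15a1 was at 237 CPM in these cells. Types I and III were low, with Col1a1 at 1.65% of its fibroblast level, within the range of the 8 fibroblast genes, and Col1a2 (0.57%) and Col3a1 (0.476%) below it.

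Mural-like cells also had 3 of 38 members higher past 2-fold (6.63% of all 15798 features) and 15 lower (5.55%). The higher ones were Col18a1 (174 CPM, 139 to 216), Col4a6 (43.1 CPM, 26.7 to 65.9) and Col25a1 (8 UMIs in 3 cells). The stricter filter, over 500 genes with below 5% mitochondrial UMIs, left 11 of the 55 cells, with 57689 UMIs, in which Col25a1 was the 1 member higher (3.47% of all features) and 6 were lower (1.33%). Col4a6 had no UMI in these 11 cells, which allows up to 52.0 CPM by a limit of 3 UMIs. Col4a6, whose product is found in smooth muscle basement membranes, was found in 16 of the 55 cells, and the next class, Pi16/Dpp4 cells, was at 10.8 CPM. Its head-to-head neighbour on chromosome X, Col4a5, was at 92.3 CPM against 86.5 CPM in fibroblasts, and the interval of that ratio, 0.775 to 1.43-fold, included no difference. Per UMI of Col4a6 there were 2.14 UMIs of Col4a5 in mural-like cells (1.25 to 3.79) and 14.5 in fibroblasts (12.0 to 17.7). Col4a1 (404 CPM) was the highest collagen, followed by Col3a1 (341 CPM) and Col4a2 (263 CPM). Type IV made up 36.7% and fibril-forming collagens 38.3% of collagen UMIs. Col1a1, Col1a2 and Col3a1 were at 2.34, 3.72 and 3.55% of their fibroblast level, within the range of the 8 fibroblast genes. That range started at 0%, so no member could lie below it, and all 3 were above its median of 0.372%. Col3a1 was in 23.6% of thinned cells (13.2 to 37.0%), an interval that holds the 18.7% of myeloid-like cells.

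Col4a1 and Col4a2, which join in the same helix and whose genes overlap head to head on chromosome 8, ranged from 1.15 in Schwann-like cells (0.818 to 1.61) to 2.48 in Pi16/Dpp4 cells in UMIs of Col4a1 per UMI of Col4a2. The ratio lay between 1.97 and 2.48 in the 5 fibroblast subtypes, and was 1.44 in tenocyte-like (1.31 to 1.58), 1.54 in mural-like (1.23 to 1.94), 1.58 in endothelial-like (1.37 to 1.82) and 2.13 in satellite and myoblast-like cells (1.83 to 2.48). The ratio of Col6a1 to Col6a2 ranged from 1.64 to 2.72 over the classes with a value. Type VIII chains, which line vessels and other surfaces, varied more. Col8a1 per Col8a2 was 21.9 in fibroblasts (17.5 to 27.7) and 1.84 in tenocyte-like cells (1.62 to 2.08).

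**Figure D4:**
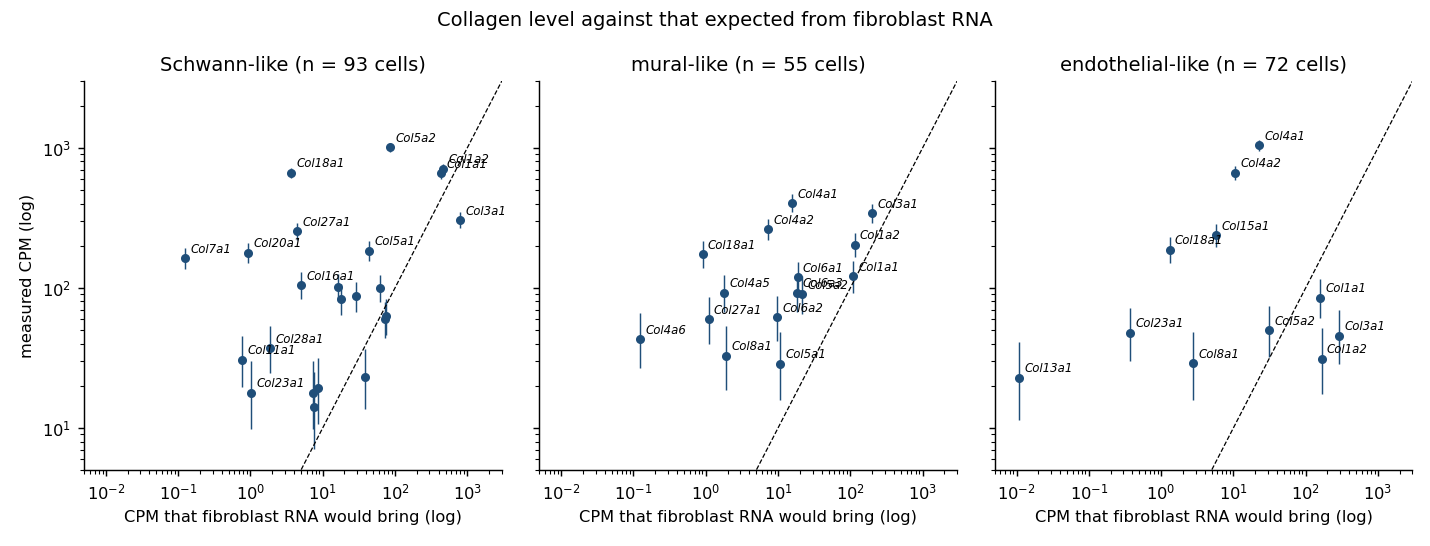
Measured level of each member with at least 10 UMIs (vertical, CPM, log axis, Poisson 95% bars) against its fibroblast level times the summed percentage of the 8 fibroblast genes (horizontal, CPM, log axis) in Schwann-like, mural-like and endothelial-like cells. The dashed line marks equal levels by the sum of the 8 fibroblast genes, from which single genes deviated widely. Type I chains lie above the line in Schwann-like cells and on or a little above it in mural-like cells, within the range of the 8 single genes in both, and Col3a1 below it in Schwann-like and endothelial-like cells, while Col7a1, Col18a1 and Col20a1 in Schwann-like and Col4a1, Col4a2 and Col18a1 in both vessel classes lie far above. In the Schwann-like panel only members at 150 CPM or more, or over 15 times the line, carry names.

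Satellite and myoblast-like cells had 4 of 38 members higher than in fibroblasts past 2-fold (6.27% of all 16020 features) and 23 lower (11.3%). Col19a1, a fibril-associated collagen known from developing muscle, was at 213 CPM (194 to 234) from 456 UMIs, and no other class was above 1.42 CPM. It was in 29.4% of the thinned cells (23.6 to 35.8%) against 0.461% of myeloid-like cells, and the top 5 cells held 13.6% of its UMIs. Col8a1 was at 277 CPM (255 to 301) against 91.0 CPM, and the other members past 2-fold higher were Col26a1 (21 UMIs) and Col25a1 (6 UMIs). With a minimum of 5000 UMIs, with 1 more marker or under the stricter filter 4 were again higher (6.15, 6.28 and 6.33% of all features), but with Col17a1 in the place of Col26a1. Col4a1 (253 CPM), Col5a2 (187 CPM) and Col5a3 (95.9 CPM) were at 34.2, 18.2 and 44.6% of their fibroblast level, above the range of the 8 fibroblast genes. The 8 fibroblast gate markers spread more widely there, summing to 498 CPM against 5104 CPM in fibroblasts and running from 0.0955% (Pdgfra), 0.157% (Lum), 0.657% (Cygb) and 6.77% of the fibroblast level (Serpinf1) to 16.3% (Abca8a), 22.9% (Dpt, 247 against 1078 CPM) and 27.9% (Htra3, 86.0 against 308 CPM), leaving out Lamc3, nearly absent from fibroblasts. Of the 3 collagens, Col5a2 lay within this spread. Their part in the collagen levels was not tested. Col3a1 (278 CPM) and Col1a1 (29.5 CPM) were at 2.89 and 0.57%, within the range of the 8 fibroblast genes. Col6a3 had 2 UMIs against 142 of Col6a1.

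Myeloid-like cells had no member higher than fibroblasts past 2-fold at the near bound of its interval (13.9% of all 19437 features) and 32 of 40 lower (21.5%). Their leading collagens were Col3a1 (119 CPM), Col1a1 (114 CPM) and Col1a2 (82.2 CPM), in that order. Col3a1 (1.24% of its fibroblast level) and Col1a2 lay within the narrow range of the 8 fibroblast genes, and Col1a1 (2.20%) lay above it, as did Col14a1 with 35.7 CPM, 5.08% of its fibroblast level. In all, 33 of the 44 members lay above that range in myeloid-like cells, 9 within it and 2 below. These places take no account of counting error, and some of the 33 rested on few UMIs. Col10a1 and Col9a2 were at 0.0113 CPM each in myeloid-like cells, and Col22a1 at 0.206 CPM in fibroblasts. Shares of myeloid-like cells with a UMI, given above beside those of other classes, are a comparison from the same library, and their source was not tested.

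**Figure D5:**
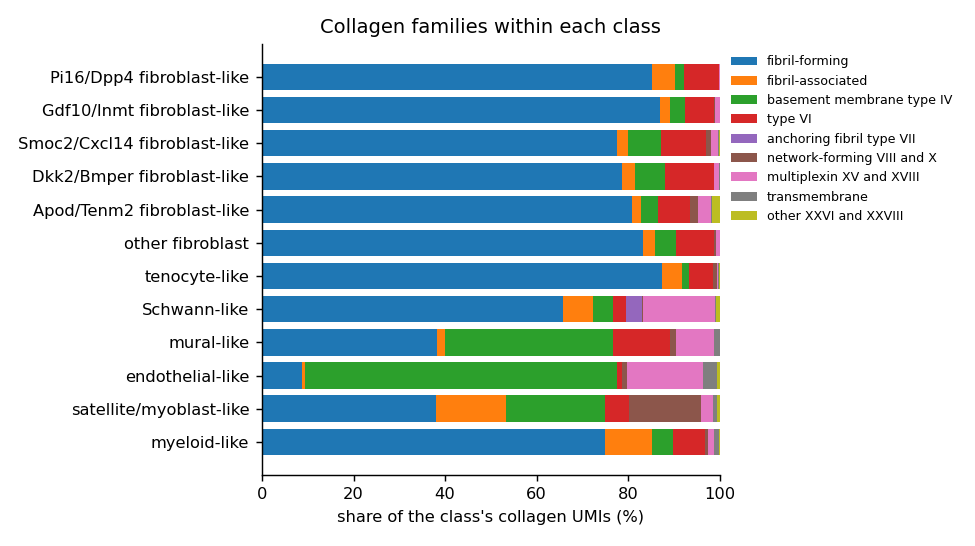
Share of each class's collagen UMIs by collagen family, in percent. Fibril-forming collagens take 77.5 to 87.3% in the fibroblast subtypes and tenocyte-like cells, type IV 68.3% in endothelial-like and 36.7% in mural-like cells, and types XV and XVIII together 15.6% in Schwann-like and 16.7% in endothelial-like cells.

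Other genes of collagen making were followed as a list of 30. It held prolyl and lysyl hydroxylases, chaperones, propeptide-cleaving enzymes, cross-linking oxidases and genes of other kinds. Among the last were Colgalt1, Colgalt2, Mia3, Creb3l1, Pcolce, Pcolce2 and Sparc. All 30 passed the filter on low counts in each comparison. In tenocyte-like cells 5 were higher than in fibroblasts past 2-fold and 4 lower, where the rule took 5.61 and 6.22% of all features. The lysyl oxidase gene Lox, which cross-links collagen and elastin, was at 838 against 280 CPM. The prolyl hydroxylases P3h2 and P4ha1 were at 223 against 3.96 CPM and 385 against 107 CPM, and P3h4 and Adamts3 were the other higher genes. The 4 lower ones were relatives of these or act at the same steps, with the oxidase Loxl1 at 118 against 398 CPM, the prolyl hydroxylase P4ha2 at 7.01 against 50.7 CPM, and the propeptide-cleaving enzymes Bmp1 at 73.1 against 264 CPM and Adamts14 at 0.226 against 6.63 CPM. In Schwann-like cells 2 were higher, Plod3 (136 against 34.3 CPM) and P3h2, and 10 lower (9.27 and 6.04% of all features). Mural-like cells had 1 higher and 14 lower (6.63 and 5.55%), endothelial-like cells 2 and 13 (7.43 and 5.19%), satellite and myoblast-like cells 0 and 20 (6.27 and 11.3%), and myeloid-like cells 1 and 24 (13.9 and 21.5%). Serpinh1, the collagen-specific chaperone, was at 814 CPM in fibroblasts, 980 CPM in tenocyte-like, 441 CPM in Schwann-like, 336 CPM in endothelial-like, 300 CPM in mural-like, 170 CPM in satellite and myoblast-like and 14.2 CPM in myeloid-like cells. The Serpinh1 intervals of endothelial-like (287 to 392 CPM) and mural-like cells (253 to 352 CPM) overlapped.

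The list of 10 collagen receptors was read by the same rule and the same shares of all features, and Gp6 passed the filter on low counts only in the myeloid-like comparison. In tenocyte-like cells 3 of 9 were higher than in fibroblasts past 2-fold and 1 lower (5.61 and 6.22% of all features), in Schwann-like cells 3 and 3 (9.27 and 6.04%), in mural-like cells 3 and 3 (6.63 and 5.55%) and in endothelial-like cells 1 and 3 (7.43 and 5.19%). In satellite and myoblast-like cells 1 of 9 was higher and 5 lower (6.27 and 11.3%), and in myeloid-like cells 1 of 10 was higher and 7 lower (13.9 and 21.5%). Ddr2, the discoidin receptor of fibrillar collagen, was at 752 CPM in fibroblasts and 194 CPM in tenocyte-like cells and was lower past 2-fold than in fibroblasts in all 6 of the other classes. Its relative Ddr1 was higher past 2-fold in Schwann-like (51.2 CPM), mural-like (39.0 CPM) and satellite and myoblast-like cells (34.6 CPM) than in fibroblasts (9.51 CPM), and lower in myeloid-like cells. Itga1, an integrin chain that binds type IV collagen, was higher past 2-fold in Schwann-like and endothelial-like (293 CPM each), mural-like (361 CPM) and tenocyte-like cells (86.4 CPM) than in fibroblasts (33.6 CPM). It was lower in satellite and myoblast-like (5.61 CPM) and myeloid-like cells (11.6 CPM). Itga11, an integrin chain that binds fibrillar collagen, and Mrc2, an endocytic collagen receptor, were at 44.7 and 148 CPM in fibroblasts, did not pass in tenocyte-like cells (53.4 and 158 CPM) and were lower past 2-fold in the other 5 classes. Lair1, an inhibitory collagen receptor of immune cells, was higher in myeloid-like cells, at 79.9 against 0.617 CPM.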

How the data were processed

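The raw counts, UMIs per gene and barcode, were deposited by the authors as the filtered matrix of Cell Ranger (8.0.1 in the file header, 7.1.0 and Seurat 4.30 in the labels) with mm10 named as the build, and no pooling of libraries was stated. Free RNA was not removed. Of the deposited barcodes, those with at least 2000 UMIs, more than 200 genes and under 10% mitochondrial UMIs were kept. A class asked for at least 3 of its markers (tenocyte 4, myeloid 5) and, for every 10000 UMIs, at least 10 marker UMIs for fibroblasts, 20 for tenocytes, 30 for myeloid cells and 5 for the others. Cells past several gates were left out, except that tenocyte went before fibroblast, and so were non-myeloid cells with 10 or more myeloid marker UMIs for every 10000 UMIs, and non-stromal cells with 10 or more of the fibroblast list. This also served against doublets, and Scrublet was an alternative. Fibroblast subtypes followed the highest mean z-score of their lists, by at least 0.25 over the next. The thresholds were set after marker levels were seen, with no collagen used, and the satellite and myoblast class was added as a comparator. The members and lists were chosen with earlier results of these data known.

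UMIs were summed per class. Intervals were exact (95%): Poisson for levels, Clopper-Pearson binomial for shares and conditional binomial for ratios. A ratio was called where the interval lay past 2-fold, among features with at least 10 UMIs over both classes. A feature with fewer in the compared fibroblasts could pass only with UMIs of the other class. This held for Col13a1 in endothelial-like cells and for Col25a1 in mural-like and satellite and myoblast-like cells. Shares of cells were taken after thinning each cell to 2000 UMIs. Fibroblast RNA in other classes was gauged, relative to gated fibroblasts, by Dcn, Clec3b, Ccdc80, Mfap5, Mmp2, Fbln1, Igfbp6 and Fstl1. A member was named at 20 CPM or more in a class, or when among the highest members of a class. It was also named with at least 10 UMIs in a highest class outside fibroblasts and tenocyte-like cells. Other members were given with their counts. Promoter windows and coordinates came from RefSeq (GRCm38.p6), to which all 44 members matched by symbol or identifier. Python 3.11.15, scipy 1.17.1 and scanpy 1.11.5 were used, and the interval and gating code was tested on simulated data.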

Additional observations from a re-analysis of the deposited data

How the results depend on the processing

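With 1 library, no alternative gives a replicate error, and depth limits the mural-like, endothelial-like, Schwann-like and Apod/Tenm2 classes, where a few cells can hold most UMIs of a member. No paired analysis was possible because the comparisons lie within 1 library. Of 243 log2 ratios of a member's highest class to the next that were recomputed, 234 kept their sign, 2 with a reported interval above 0 reversed, and 7 changed sign whose reported interval had included no difference (Col4a2, Col6a1, Col6a6, Col8a1 and Col15a1). Further, 240 of 245 levels in the highest class stayed within 1.5 times. The other 5 were Col2a1 (from 37.9 to 14.5 CPM) and Col8a1 (from 344 to 166 CPM) in Apod/Tenm2 cells and Col4a6 in mural-like cells (from 43.1 to 0 CPM) under the stricter filter on genes and mitochondrial UMIs, and Col26a1 (from 60.9 to 33.3 CPM) and Col28a1 (from 301 to 199 CPM) in Apod/Tenm2 cells with each cell weighted the same. The reversals were Col2a1 in Apod/Tenm2 against tenocyte-like cells, from 1.10 to -0.50 with more than 500 genes and under 5% mitochondrial UMIs asked for, and Col3a1 in the unassigned against Gdf10/Inmt fibroblasts, from 0.05 to -0.12 with each cell weighted the same.

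The collagen share of UMIs moved as follows, beyond its counting interval. With a minimum of 5000 UMIs it was 2.67% in fibroblasts, 3.03% in tenocyte-like and 0.0149% in myeloid-like cells. With 1 more marker asked for it was 2.71% in fibroblasts, 3.19% in tenocyte-like, 0.239% in mural-like, 0.239% in endothelial-like, 0.0484% in myeloid-like and 0.190% in satellite and myoblast-like cells. The stricter filter on genes and mitochondrial UMIs gave 2.93% in tenocyte-like, 0.419% in mural-like, 0.284% in endothelial-like, 0.0421% in myeloid-like and 0.171% in satellite and myoblast-like cells. Without 1373 Scrublet doublets of 18528 barcodes, it was 2.93% in tenocyte-like and 0.0392% in myeloid-like cells. Each cell weighted the same gave 2.57% in fibroblasts, 2.72% in tenocyte-like, 0.245% in mural-like, 0.234% in endothelial-like and 0.121% in myeloid-like cells. With fibroblast RNA subtracted, it was 0.355% in Schwann-like, 0.172% in mural-like, 0.232% in endothelial-like, 0.0124% in myeloid-like and 0.151% in satellite and myoblast-like cells. Without the limits on myeloid and fibroblast markers, an alternative chosen after seeing the data, it was 2.65% in fibroblasts, 3.05% in tenocyte-like, 0.314% in mural-like, 0.277% in endothelial-like and 0.0622% in myeloid-like cells. The causes were not tested.

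A 4-fold in place of a 2-fold threshold is stricter by construction. The share of all features past it stands after each count. The count of higher members became 1 in endothelial-like (4.13%), 1 in satellite and myoblast-like (2.75%), 0 in Pi16/Dpp4 (0.952%), 1 in Smoc2/Cxcl14 (0.498%) and 5 in Apod/Tenm2 cells (1.07%). That of lower members became 8 in tenocyte-like (2.48%), 9 in Schwann-like (3.01%), 8 in Pi16/Dpp4 (1.63%), 1 in Gdf10/Inmt (0.268%), 0 in Dkk2/Bmper (0.294%) and 0 in Apod/Tenm2 cells (0.204%). At 2-fold, 1 more marker gave Gdf10/Inmt cells 1 higher (1.39%) and 2 lower (1.07%). Under the stricter cell filter 11 mural-like cells were left, with 1 higher (3.47%) and 6 lower (1.33%), and Apod/Tenm2 cells had 1 lower (0.772%), as they had with a minimum of 5000 UMIs (0.959%). With the Apod/Tenm2 cells left out of the compared fibroblasts, also chosen after seeing the data, Dkk2/Bmper cells had 2 lower (1.23%). Counts that stayed within 1.5 times also changed single members. Beside those named with their comparison above, the settings on cells, gates and doublets ended the lower calls of Col28a1 in tenocyte-like, Col5a3 in Schwann-like, Col4a4 and Col20a1 in satellite and myoblast-like, Col2a1, Col23a1 and Col26a1 in Pi16/Dpp4, Col11a1 and Col24a1 in Gdf10/Inmt and Col14a1 in Apod/Tenm2 cells, and the higher calls of Col8a1 and Col8a2 in Apod/Tenm2 cells, each in at least 1 setting. The median over members of the share of cells with a UMI in the highest class was 31.0% after thinning to 2000 UMIs, 57.7% unthinned and 17.1% after thinning to 1000 UMIs.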
